A study of Mus musculus with 2 samples.

Results

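Heart muscle genes were followed in whole mouse lung, in which muscle of the heart type is normally found as a sleeve around the pulmonary veins. The set held 10 genes fixed by name, Myh6, Myl3, Myl4, Myl7, Actc1, Nppa, Sln, Tnnt2, Tnni3 and Pln, of 13840 genes named on the array. Each of the 10 had 1 probe that carried its symbol alone, and all 10 probes were used. RNA came from lungs taken 12 weeks after a chemical carcinogenesis protocol. The wild-type group was FVB/N mice, males by their labels, and the other group was Rosa26-Foxm1 transgenic mice, whose sex and strain are not in the labels used here. Rosa26 is a locus active in most cell types, and Foxm1 is a forkhead transcription factor of dividing cells. Both groups, controls included, had received 3-methylcholanthrene, a carcinogen, as 1 intraperitoneal dose of 15 µg/g. Weekly injections of butylated hydroxytoluene, which promotes lung tumours, followed 6 times, the first of 150 µg/g and the later ones of 200 µg/g. No array of untreated lung was used here. Each group was 1 array, on which RNA of 3 mice was pooled, taken from their left lung lobes. The lung genes Sftpc, a surfactant protein, and Scgb1a1, the club cell secretory protein, were among the bright probes of both arrays, with normalised intensities of 1228 and 2529 in wild-type lung against 856 and 1767 in Rosa26-Foxm1 lung.

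In rodents, cardiomyocytes of the left atrium continue along the pulmonary veins into the lung, so that lung RNA carries transcripts of the contractile apparatus of the heart. In these cells a myosin motor with its light chains pulls on actin thin filaments, which the troponins switch on when calcium rises. Calcium is then pumped back into the sarcoplasmic reticulum by an ATPase that the small membrane proteins phospholamban and sarcolipin hold back, and atrial muscle also secretes natriuretic peptide. The genes Myl4, Myl7, Sln and Nppa are known for their atrial rather than ventricular expression in the adult heart.

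Intensities are given after quantile normalisation of the 2 arrays, on a scale where the median probe, which served as the floor, was 1.00. All 10 heart muscle genes were above that floor on both arrays, as were 62% of the named genes. For 6 of the 10 the probe was brighter than the 90th percentile of all probes on both arrays, against 13.9% of the named genes. The dimmest probe, that of Myl3, still stood at 3.26 times the floor on the array where it was lower. Probe brightness depends on the probe as well as on the transcript, so no level of 1 gene is set against that of another. With 1 array per group there was no spread between replicates and no test. The error used here, called the probe SD, is the SD of the log2 difference between probes of the same gene, taken from 317 genes with 2 or more measured probes. It was 0.31 over all these genes, 0.37 for the dimmer and 0.23 for the brighter pairs, and it leaves out differences between mice. Over the 9518 genes measured above the floor on at least 1 array, the median log2 difference (Rosa26-Foxm1 minus wild type) was -0.06, with 5th and 95th percentiles of -0.71 and 0.69. Foxm1 was near the floor on both arrays (wild type 1.13, Rosa26-Foxm1 1.23). Whether its probe detects the transgene is not known here, so it does not check the labels.

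**Figure D1:**
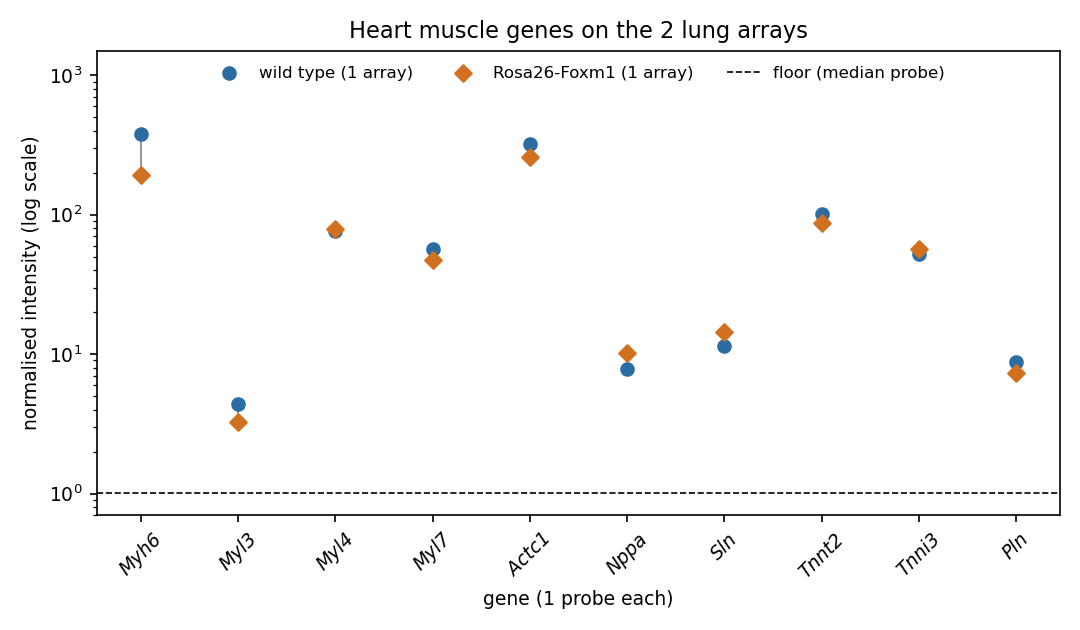
Normalised intensity (log axis) of the 10 heart muscle genes on the wild-type (circles) and Rosa26-Foxm1 (diamonds) array, 1 probe per gene, with the floor at the median probe as a dashed line. All points lie above the floor, and the Myh6 points are the farthest apart, at 376 and 193.

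Of the 10 genes, 1 was at least 1.5-fold lower in Rosa26-Foxm1 lung (Myh6), none was at least 1.5-fold higher, and 9 lay between. Among all measured genes, 8.45% were at least 1.5-fold lower and 7.07% at least 1.5-fold higher, so a count of 1 lower and 0 higher among 10 is near that background. None of the 10 was 2-fold apart, where 1.51% of measured genes were lower and 1.98% higher by that size. By sign alone, 6 of the 10 were lower and 4 higher, beside 56% of all measured genes below 0 and 43.9% above. Their median log2 difference was -0.23 and their mean -0.16, beside the median of -0.06 over all measured genes. The SD among the 10 differences was 0.40, and 0.30 among the 9 without Myh6, beside a probe SD of 0.31. In whole lung, fewer heart muscle cells in a pool and less RNA of these genes per cell cannot be told apart.

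Myh6 encodes the alpha isoform of cardiac myosin heavy chain, the fast motor protein of the mouse heart. Wild-type lung had a normalised Myh6 intensity of 376 and Rosa26-Foxm1 lung 193. Its log2 difference was -0.96, which is 1.95-fold lower or 51.4% of the wild-type value. In the deposited values, before quantile normalisation, the pair was 350 and 204. The Myh6 probe was brighter than 99.3% of all probes in wild-type lung and than 98.3% in the other. The size of its difference was 3.11 times the probe SD over all pairs and 4.17 times that of the brighter pairs. Of the 183 genes whose mean brightness lay within 0.5 log2 units of Myh6, itself included, 3 were at least as far down (1.64%). The other 9 heart muscle genes had a median of -0.20, and Myh6 minus that median was -0.76. Under the 9 processing settings compared, the Myh6 difference ran from -0.96 to -0.78 and passed 1.5-fold in each. The smallest size came with median scaling of the arrays (1.72-fold lower). Its 1 probe stood far above every floor, so changes of the floor, the probe or the symbols left the value as it was. Only the scaling moved it, with loess (-0.95), median scaling (-0.78) and the deposited values, which nearly repeat median scaling. Since Myh6 rests on 1 probe per array and on 1 pool of 3 mice per genotype, a difference between the pools cannot be told apart from one between the genotypes.

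The myosin light chains did not share the size of the Myh6 difference. Myl4, the atrial essential light chain, had an intensity of 76.6 in wild type and of 79.2 in Rosa26-Foxm1 (log2 difference 0.05). Myl7, the atrial regulatory light chain, was at 56.9 and 47.1 (-0.27). Myl4 differed by less than either probe SD, and Myl7 by less than the probe SD over all pairs and 1.18 times that of the brighter pairs. Myl3, the essential light chain of ventricle and slow skeletal muscle, was at 4.39 and 3.27, a difference of -0.43 that exceeded the probe SD but not 1.5-fold. Myl3 was also the dimmest of the 10 probes, and 17.5% of the 1319 genes of like brightness were at least as far down.

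The thin filament genes differed on both sides of 0, from -0.32 to 0.12. Actc1, the alpha actin of heart muscle, gave 323 in the wild-type pool and 260 in the other (-0.32). With median scaling the Actc1 difference was -0.10, so its size depended on the scaling. Tnnt2, the cardiac troponin that anchors the troponin complex to tropomyosin, was at 101 and 87.9 (-0.20). Tnni3, the inhibitory troponin subunit of the adult heart, was at 52.4 and 56.8 and had the opposite sign (0.12). The differences of Tnnt2 and Tnni3 were smaller than either probe SD, and that of Actc1 was 1.03 times the probe SD over all pairs and 1.37 times that of the brighter pairs. Cardiac actin is closely related to the skeletal and smooth muscle actins, as is Myh6 to the beta isoform Myh7. Probe sequences were not used here, so how much signal of such relatives the Actc1 and Myh6 probes take up is unknown.

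The inhibitors of the calcium pump differed in opposite directions by small amounts. Sln, sarcolipin, which is found in atrial and in some skeletal muscle, gave 11.5 in the wild-type pool and 14.4 in the Rosa26-Foxm1 pool (0.32). Pln, phospholamban, which is also made by smooth muscle, was at 8.83 and 7.30 (-0.27). Nppa, the precursor of atrial natriuretic peptide, was at 7.76 and 10.2. At 0.40 it was the highest of the 10 differences, 1.32-fold, which is larger than the probe SD and below the 1.5-fold size. Among the 1649 genes of like brightness, 11.5% were at least as far up as Nppa, and among the 1582 of like brightness with Sln, 16.3% were.

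**Figure D2:**
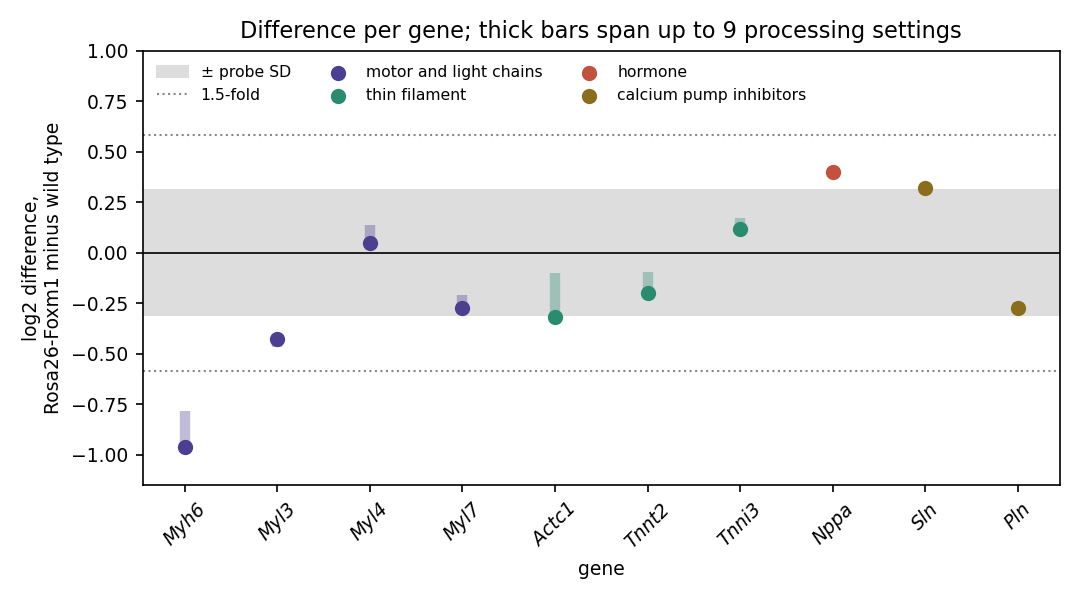
Log2 difference (Rosa26-Foxm1 minus wild type) of each heart muscle gene as points coloured by role, with bars spanning the lowest to the highest value over up to 9 processing settings, the probe SD as a grey band and 1.5-fold as dotted lines. Myh6, at -0.96, is the gene beyond the 1.5-fold line, and Nppa, at 0.40, the highest.

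**Figure D3:**
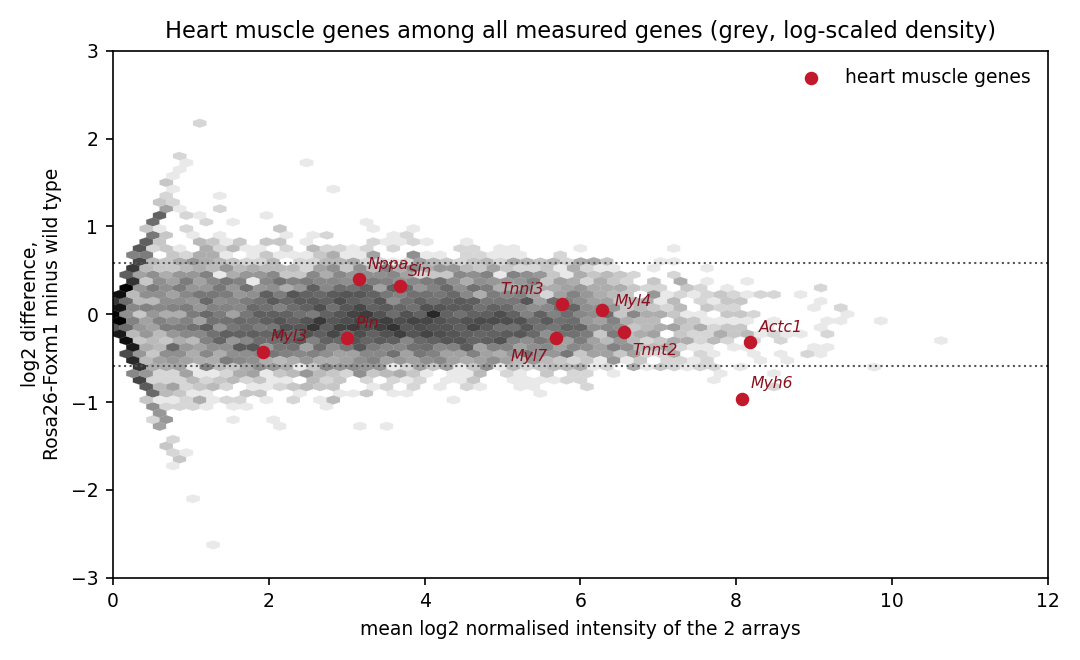
Log2 difference against mean log2 normalised intensity for all measured genes (grey hexagons, darker for more genes; the axis ends at 3 in both directions and leaves out 11 genes) and for the 10 heart muscle genes (red). The fan at the left holds genes cut off at the floor on 1 array, and Myh6 lies at the lower edge of the genes of its brightness.

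Summed over the 10 probes, the signal came to 1019 in wild type and 759 in Rosa26-Foxm1 (74.5%). Without Myh6 the sums were 642 and 566 (88.1%). In the deposited values the sums were 962 and 798 (82.9%), and 612 and 594 (97.1%) without Myh6, so the size of this gap depended on the scaling.

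The sequence before the start of the members was examined as background to their shared tissue, with RefSeq promoters of the mouse build GRCm38.p6. Of the 10 genes, 9 matched by symbol; Tnnt2 had 2 annotated starts, and Sln had no entry. The 250 bases before each start were searched on both strands for 6 motifs that cardiac and general transcription factors are known to bind. A GATA site was GATA with A or T before it and A or G after it, the NKX2-5 site was TNAAGTG, the M-CAT element was CATTCC and the TATA box was TATAAA; the MEF2 site and the CArG box, bound by serum response factor, were searched in their usual degenerate forms. A CArG box stood before Actc1, Myl3 and Myl7, 3 of 9 genes, where 1.47% of all 32851 promoters of this length had 1. GATA sites stood before 5 of the 9 (Myh6, Myl7, Nppa, Pln and Tnnt2), against 26.5% of all promoters. M-CAT elements stood before 4 (Myh6, Myl3, Myl7 and Tnnt2), against 12.6% of all promoters, and the NKX2-5 site before Nppa (10.1%). The TATA box sequence was found before Nppa (bases -9 to -4 from the start) and Pln (-219 to -214), against 12.4% of all. The search set no position for it. The MEF2 form was found before none of the 9 and in 2.92% of all promoters. No matches overlapped each other. The promoters of Myh6, the gene with the largest difference, of Nppa, the highest, and of Actc1 and Myl7, which held CArG boxes, are shown from the base 250 before the start, 5′ to 3′ on the strand of the gene, with the matches in capitals.
Myh6, chr14:54966608-54966857, - strand: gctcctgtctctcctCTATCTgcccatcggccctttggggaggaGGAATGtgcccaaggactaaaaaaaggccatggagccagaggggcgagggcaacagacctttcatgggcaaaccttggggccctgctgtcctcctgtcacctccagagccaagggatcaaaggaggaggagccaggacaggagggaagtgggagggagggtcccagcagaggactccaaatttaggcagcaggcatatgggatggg
Nppa, chr4:148000472-148000721, + strand: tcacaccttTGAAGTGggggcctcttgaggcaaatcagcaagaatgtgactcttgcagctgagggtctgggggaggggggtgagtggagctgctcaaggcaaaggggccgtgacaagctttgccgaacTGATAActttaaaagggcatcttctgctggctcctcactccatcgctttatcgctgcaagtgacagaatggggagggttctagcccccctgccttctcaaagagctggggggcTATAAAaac
Actc1, chr2:114052876-114053125, - strand: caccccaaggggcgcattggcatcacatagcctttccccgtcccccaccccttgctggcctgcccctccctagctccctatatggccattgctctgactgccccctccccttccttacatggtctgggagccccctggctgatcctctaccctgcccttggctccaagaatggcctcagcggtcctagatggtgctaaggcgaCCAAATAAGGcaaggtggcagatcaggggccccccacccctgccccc
Myl7, chr11:5898783-5899032, - strand: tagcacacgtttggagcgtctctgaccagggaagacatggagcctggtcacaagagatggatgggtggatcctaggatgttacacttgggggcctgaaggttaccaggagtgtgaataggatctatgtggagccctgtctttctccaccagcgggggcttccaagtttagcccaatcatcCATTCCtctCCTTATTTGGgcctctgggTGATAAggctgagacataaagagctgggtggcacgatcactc
In Myh6 the capitals mark a GATA and an M-CAT match, in Nppa the NKX2-5, GATA and TATA matches, in Actc1 the CArG box, and in Myl7 the M-CAT element, the CArG box and a GATA site. These letters are matches only, and no binding was measured.

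Other genes of heart muscle were taken from 5 lists of 87 genes in all, of which 66 had a probe of their own and 49 were measured. At the 1.5-fold size, 8 of the 49 were lower (16.3%, beside 8.45% of all measured genes) and 1 was higher (2.04%, beside 7.07%). Their median log2 difference was -0.21, beside -0.23 for the 10 genes. With median scaling these medians were -0.16 and -0.10. With the floor at the 75th percentile, 2 of 25 were at least 1.5-fold lower (8%, beside 5.24% of all genes measured then). With no floor, 12 of 66 were lower (18.2%, beside 14.4%) and 8 higher (12.1%, beside 13.2%), so the share stood nearer to that of all genes. Of the 8 lower genes, Tbx3 passed 1.5-fold narrowly and did not with median scaling (-0.52), and Ttn did not with the median over its probes (-0.31). That Ttn median was fixed beforehand, because its second probe lay below the floor on both arrays and entered as 0. Several of the 8 lower genes are not particular to heart muscle. The connexins Gja5 (7.24 in wild type, 4.47 in Rosa26-Foxm1) and Gja1 (7.55 and 4.67) are also made by vessel walls. Npr2 (34.1 and 19.4), a receptor of natriuretic peptide type C, and the transcription factor Tbx3 (61.9 and 41.2) are likewise expressed outside the heart.

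The other sarcomere and Z-disc genes had a median of -0.21 over 16 measured genes, 2 of them at least 1.5-fold lower and none higher. For this list and each list below, the shares of all measured genes at least 1.5-fold apart were 8.45% lower and 7.07% higher. Ldb3, a Z-disc scaffold, was near the floor at 1.94 and 1.23 (-0.65), and Ttn, the giant elastic protein titin, was at 10.7 and 6.99 (-0.62). The second Ttn probe was below the floor on both arrays. Fhl2, a LIM protein of heart muscle, differed by -0.31. At the other end were the small heat shock protein Cryab (0.15), the ventricular light chain Myl2 (0.11) and the muscle LIM protein Csrp3 (0.01). Myh7, the slow myosin heavy chain and close relative of Myh6, was at 101 and 87.0 (-0.21), and the log2 difference of Myh6 minus that of Myh7 was -0.75.

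Among genes of calcium handling and excitation, 9 of 16 were measured, with a median of -0.18, 3 at least 1.5-fold lower and none higher. These counts depended on the floor. With the floor at the 75th percentile, 0 of 4 were lower (beside 5.24% of all genes measured then). With no floor, 6 of 16 were lower (beside 14.4%) and 2 higher (beside 13.2%). The lowest were Gja5 (-0.69), Gja1 (-0.69) and Popdc2, a cyclic AMP binding membrane protein of striated muscle (7.24 and 4.58, -0.66). The highest were the potassium channel Kcnq1 (0.44), the histidine-rich calcium binding protein Hrc (0.41) and the calsequestrin Casq2 (0.11). The median over both probes of Casq2 was -0.18, so its sign depends on the probe. Ryr2, the calcium release channel of heart muscle, was below the floor on both arrays.

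Of the cardiac transcription factors, 9 of 16 were measured, with a median of -0.08, or 0.02 when no floor was set. Nkx2-5, the homeobox factor of heart muscle, was low on both arrays, at 2.79 and 2.97 (0.09), while Gata4 and Tbx20 were below the floor on both. Tbx3 (-0.59), Tbx5 (-0.49) and Mef2a (-0.43) were the lowest, and Mef2d (0.21) and Mef2c (0.13) the highest. Of the natriuretic peptide system 4 of 6 genes were measured, 1 of them at least 1.5-fold higher and 1 lower. The list's median was -0.20, and 0.37 with no floor or 0.35 with the floor at the 25th percentile, so no direction is given for it. Corin, the protease that activates the Nppa product, did not reach the floor in wild type (0.724) and was at least 1.99-fold higher in Rosa26-Foxm1. The receptor Npr2 was 1.76-fold lower (-0.82). Furin differed by -0.34 and Npr1, the receptor for atrial natriuretic peptide, by -0.06 close to the floor. Nppb and Nppc, which encode the other natriuretic peptides, were below the floor on both arrays.

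Muscle isoforms of energy metabolism had a median of -0.34 over 11 measured genes, of which 1 was 1.5-fold or more lower and none higher. Cpt1b, the muscle carnitine palmitoyltransferase, was at 1.78 and 1.01 (-0.82), which puts it at the floor in Rosa26-Foxm1 lung. The cytochrome oxidase subunit Cox8b was at 13.9 and 9.37 (-0.57) and the muscle creatine kinase Ckm differed by -0.45. The other subunit, Cox7a1, was at 9.78 and 7.87. The coactivator Ppargc1a (0.55), myoglobin Mb (0.24) and the phosphoglycerate mutase Pgam2 (0.16) were the highest.

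**Figure D4:**
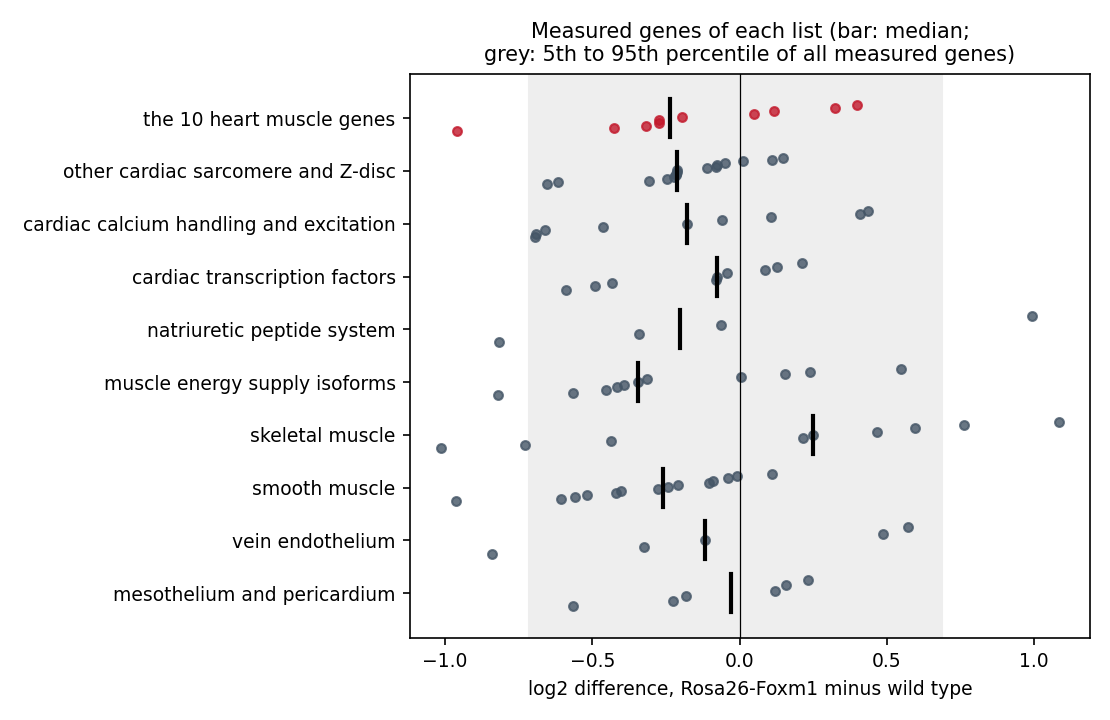
Log2 difference (Rosa26-Foxm1 minus wild type) of every measured gene in 10 lists, 1 point per gene, with each list's median as a black bar and the 5th to 95th percentile of all measured genes (-0.71 to 0.69) in grey. The medians of the 5 lists of other heart muscle genes lie between -0.34 and -0.08 with the floor at the median probe (those of natriuretic peptide genes and transcription factors are above 0 with no floor), beside -0.23 for the 10 heart muscle genes in red, and skeletal muscle genes spread widely on both sides of 0.

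Markers of ventricular and skeletal muscle and of tissues that border the lung were read to see which muscle the signal could come from. Of 6 genes of ventricular muscle, Irx4, a ventricular homeobox factor, was below the floor on both arrays. Myl2, the ventricular regulatory light chain, was above it, with 6.22 and 6.71. Myh7, bright on both arrays, is listed with ventricular muscle as well as with the sarcomere. Irx5 (0.52), Irx3 (0.12) and Hey2 (-0.15), also in that list, are expressed in other lung cells too. The list summed to 180 in wild type and 174 in Rosa26-Foxm1, with none of the 5 measured genes past 1.5-fold. Myh7 and Irx3 made up most of that sum, and in the deposited values it was higher in Rosa26-Foxm1 instead. The list's median was 0.11, or -0.02 with no floor, so no direction is given for ventricular muscle. Pieces of heart carried along with a lobe cannot be told apart from pulmonary vein muscle by these genes, and the location of the cells was not measured.

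The skeletal muscle probes were dim on both arrays. Of 23 genes listed, 7 had no probe of that gene alone, among them every skeletal myosin heavy chain listed. Those genes were not read. Of 16 with a probe, 9 were measured, 7 were below the floor on both arrays, and the brightest value of any was 4.67. The 16 probes summed to 23.1 in wild type and 24.2 in Rosa26-Foxm1. Acta1, skeletal alpha actin, was at 3.93 and 4.67 (0.25). The measured genes went both ways, with 3 at least 1.5-fold higher and 2 lower. The count higher was 2 with median scaling, the deposited values or the median over the probes of a gene. Mylpf, the fast regulatory light chain, was 2.12-fold higher (1.27 and 2.69), Myl1 differed by 0.76 and the release channel Ryr1 by 0.60. Tnnt3, fast troponin T, was under the floor in Rosa26-Foxm1 and at least 2.02-fold lower there, followed by the slow isoform Tnnt1 (-0.73) and Mybpc2 (-0.43). The list's median was 0.25, and -0.53 with no floor, so no direction is given for skeletal muscle.

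Markers of smooth muscle, veins and mesothelium are given beside the heart muscle genes because these cells share the vessel wall and its surroundings. Of 14 measured smooth muscle genes 13 were below 0 (beside 56% of all measured genes), with a median of -0.26 and 2 at least 1.5-fold lower. Myh11, the smooth muscle myosin, was at 66.3 and 46.4 (-0.52) and Acta2, smooth muscle actin, at 7.88 and 5.96 (-0.40). The integrin Itga8 was at 17.0 and 8.75 (-0.96), caldesmon Cald1 at -0.60 and desmin (Des), which heart muscle also makes, at -0.56. Actg2 was the 1 gene above 0 (0.11), and Ppp1r14a (-0.01) was above 0 with median scaling (0.08) and Synpo2 at the floor (-0.04). The list summed to 711 in wild type and 618 in Rosa26-Foxm1. Markers of vein endothelium had a median of -0.12 over 5 measured genes. It ran from -0.32 with the floor at the 75th percentile to 0.05 with no floor. Nr2f2, the nuclear receptor of venous identity, was at 55.5 and 31.0 (-0.84), Ephb4 differed by -0.32 and Prss23 by -0.12, whereas Vwf (0.49) and Ackr1 (0.57, wild type below the floor) were above 0. This list summed to 168 and 133. The 6 mesothelial genes, which also mark pericardium, had a median of -0.03, or -0.23 over the 3 measured with the floor at the 75th percentile. Msln was at 107 and 72.1 (-0.57), Upk3b at -0.23, Krt19 at -0.18, Wt1 at 0.12, Upk1b at 0.16 and Lrrn4 at 0.23. The 6 genes summed to 204 and 159. The part of smooth muscle, vessel and mesothelial content in the heart muscle differences was not tested.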

How the data were processed

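Each genotype was measured on 1 one-colour array of lung RNA. Per the labels' protocols, total RNA was cleaned on columns with DNase, and an Applied Biosystems chemiluminescent kit gave cRNA carrying digoxigenin. The authors deposited 1 linear intensity per probe and array, and how the spots were read, corrected and normalised was not stated in the sources used here. Deposited medians were 1.00 on both arrays, with ranges of 0.0294 to 2820 (wild type) and 0.0510 to 2268 (Rosa26-Foxm1). Across the 33012 probes, which are not independent replicates, the log2 values had a Pearson's r of 0.959.

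Gene symbols came from the platform annotation and were brought up to date with RefSeq through the gene ID. A single gene was given for 14411 probes, several for 247, which were left unnamed, and none in the table used here for 18354. Log2 intensities were quantile normalised between the arrays and values below the 50th percentile were set to that floor. Of several probes, the one with the highest mean stood for the gene. A gene was measured if above the floor on at least 1 array. A difference against an array below the floor is a lower bound. The probe SD is the root mean square difference between the 2 brightest measured probes of a gene, divided by the square root of 2. It used floored values.

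The 10 genes, the lists and the alternatives were chosen with earlier results of these data known. Named genes were all 10 members, up to 3 measured genes at each end of every list and the first 2 genes of each list. Of these, Cox6a2, Myh1 and Adipoq had no probe named for them alone in the table used and were not analysed here. Foxm1, Sftpc, Scgb1a1, Tbx20, Irx4, Ucp1, Cidea, Lep, Rag2 and Ptcra were named after their values were seen. With 2 arrays a pattern is 1 difference, so no genes of like pattern were sought. The number of arrays limits the precision, and no p-value is given. Calculations used Python 3.11.15, numpy 2.4.6 and pandas 2.3.3. The scaling code was tested on simulated arrays that differed by a constant shift, small noise and set changes in some probes. Differences between arrays that vary with brightness were not simulated, so that test does not choose between the scalings.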

Additional observations from a re-analysis of the deposited data

How the results depend on the processing

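The alternatives changed the scaling (median scaling, the deposited values as they are, or loess of span 0.3), the floor (25th percentile, 75th percentile, no floor), the probe of a gene (median of its probes) and the symbols (as annotated). Under these 8 alternatives the count of heart muscle genes at least 1.5-fold lower stayed at 1 and the count higher at 0. Their median log2 difference ran from -0.24 with loess to -0.10 with median scaling, beside -0.06 and -0.04 over all measured genes. All 10 genes kept their sign under every alternative that measured them, and the 79 single values moved by less than the probe SD. Much of this was fixed beforehand, as each gene had 1 probe, above the floor on both arrays. The floor at the 25th percentile, no floor, the median of the probes and the annotated symbols left every value as it was. The floor at the 75th percentile changed Pln alone (from -0.27 to -0.24). Median scaling and the deposited values gave nearly the same values. The unchanged counts and signs thus rest on loess and median scaling. Myl3 was below the floor at the 75th percentile. Without Myh6, an alternative chosen after seeing the data, the count of lower genes was 0 of 9 and the median -0.20. The median of the other heart muscle genes ran from -0.21 to -0.16. No paired analysis was possible because each group was 1 array. For the same reason no replicate could be left out, and a difference between the pools of mice cannot be told apart from one between the genotypes. The sex and strain of the Rosa26-Foxm1 mice are not in the labels used here. A difference of sex or strain therefore cannot be told apart from one of genotype either.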

Other observations

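Of the tissues beside the lung in the chest, fat and thymus were read by markers, most of them below the floor on both arrays. Of 9 fat tissue genes listed, 7 had a probe of their own. Of these 7, 5 were below the floor on both arrays, among them Ucp1, the uncoupling protein of brown fat, Cidea and Lep. The lipid droplet protein Plin1 did not reach the floor in wild type (0.937) and was at least 2.20-fold higher in Rosa26-Foxm1 (2.21), and Cidec was at 1.77 and 1.59. Of 5 genes of thymus, Dntt, Rag1, Rag2 and Ptcra, all of immature lymphocytes, were below the floor on both arrays. Cd8b1, which mature T cells also make, gave 7.86 in the wild-type pool and 6.51 in the other (-0.27).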
